A study of Mus musculus with 12 samples.

Results

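Messenger RNA levels of the aryl hydrocarbon receptor gene Ahr, of 3 genes for proteins that hold it or pair with it, and of 5 of its target genes were followed in mouse liver after miR-29 was inhibited. The 9 genes were taken by symbol from a table of 21705 genes. They comprised Ahr, its partner Arnt, the chaperones Hsp90ab1 and Ptges3, the drug-metabolising targets Cyp1a1, Cyp1a2 and Nqo1, and the targets that act back on the receptor, Ahrr and Tiparp. Of these, 7 had a mean value of at least 10 over the 12 livers and entered the test across genes, and Cyp1a1 and Ahrr did not. All mice were C57BL/6J females of 10 to 12 weeks, and all were fasted for 18 h before the liver was taken. Through the tail vein, 6 mice received saline and 6 received LNA29, a mixture of locked nucleic acids at 20 mg/kg against miR-29a and 20 mg/kg against miR-29b/c. Livers were collected on day 7. The comparison group received no oligonucleotide, so the loss of miR-29 and the presence of an oligonucleotide cannot be told apart in these libraries.

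Ahr encodes a transcription factor of the bHLH-PAS family that waits in the cytosol in a complex with the chaperone HSP90 and the co-chaperone p23. When a ligand binds, such as a dioxin or a breakdown product of tryptophan, the receptor enters the nucleus, pairs with ARNT and binds short DNA elements with the core GCGTG. In hepatocytes it is known above all for switching on Cyp1a1 and Cyp1a2, and it also switches on Ahrr and Tiparp, whose products shut the receptor down again.

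LNA29 is directed against 3 mature miRNAs, which are shown because their shared seed defines which transcripts they can pair with. The sequences are those of RefSeq for GRCm38.p6, and capitals mark the seed, bases 2 to 8.
mmu-miR-29a-3p: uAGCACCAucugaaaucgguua
mmu-miR-29b-3p: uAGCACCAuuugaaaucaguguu
mmu-miR-29c-3p: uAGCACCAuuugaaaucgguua
All 3 had the same seed, AGCACCA, whose complement in DNA letters is TGGTGCT.

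For each gene the longest 3′ UTR was searched for that complement on the transcript strand (GENCODE M21, GRCm38). Ahr, Arnt and Ahrr each held 1 match, and the other 6 genes held none. Over all 21028 genes with a 3′ UTR, 2755 held at least 1 match (13.1%). This share was not matched for length, and the 6 members without a match had 3′ UTRs of 240 to 1953 bases. The 3 sites are printed with the complement of the seed in capitals and with 1 base after it.
Ahr, chr12:35500171-35500192, minus strand, exon 11 of 11: taaagtaaatggttTGGTGCTt
Arnt, chr3:95496238-95496259, plus strand, exon 21 of 21: tgactcctgctcttTGGTGCTt
Ahrr, chr13:74211209-74211230, minus strand, exon 11 of 11: ctgtgctgttttctTGGTGCTc
The sites began 511 bases after the stop codon in Ahr, 859 in Arnt and 2441 in Ahrr, in 3′ UTRs of 2715, 1847 and 2539 bases. None was followed by the A that would extend the match. A match is a stretch of letters and does not show that the miRNA acts there.

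Values were RSEM estimates of reads per gene that the authors had divided so that the upper quartile of genes with reads came to 1000 (998 in saline 49), and a gene without a read stood at 1. The depth was 8217209 to 19062427 reads on genes in the saline group and 7696077 to 15079231 in the LNA29 group. In this unit 1 read was worth between 9.80 and 24.4, so that low values rested on few reads. The labelled tissue was checked on lists of markers, in summed deposited values. The 8 hepatocyte markers summed to between 33420900 and 112340000 in saline livers and to between 81390200 and 96802300 in LNA29 livers. The 6 bile duct markers summed to at most 891 and the 7 lymphocyte markers to at most 940 in any liver. Sums were higher for other lists, up to 22965 for stellate, 19219 for Kupffer, 17751 for red blood cell and 12232 for sinusoidal endothelial markers. Saline 49, the highest liver for Ahr and Arnt below, had the lowest albumin share of the summed values, 35.7%. The other livers ranged from 43.6% to 46.9%. In bulk liver, fewer cells of a type and less RNA per cell cannot be told apart.

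No receptor, partner or target gene passed the test across genes. Of the 7 tested members, 0 had an adjusted p under 0.05 (limma on log2(value + 1), Benjamini-Hochberg adjustment over 12486 genes), against 0.16% of all tested genes, and the smallest adjusted p was 0.608. By unadjusted limma p, 1 member was under 0.05, Hsp90ab1, which was higher in LNA29 livers. Among all tested genes 7.91% had an unadjusted p under 0.05, 1.95% as higher and 5.97% as lower in LNA29 livers. In no member did the groups stand apart without overlap, as they did in 0.985% of tested genes. The estimate was above 0 in 4 members and below 0 in 3, with a median log2 fold change of 0.14, where the median of all tested genes was -0.093.

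**Figure D1:**
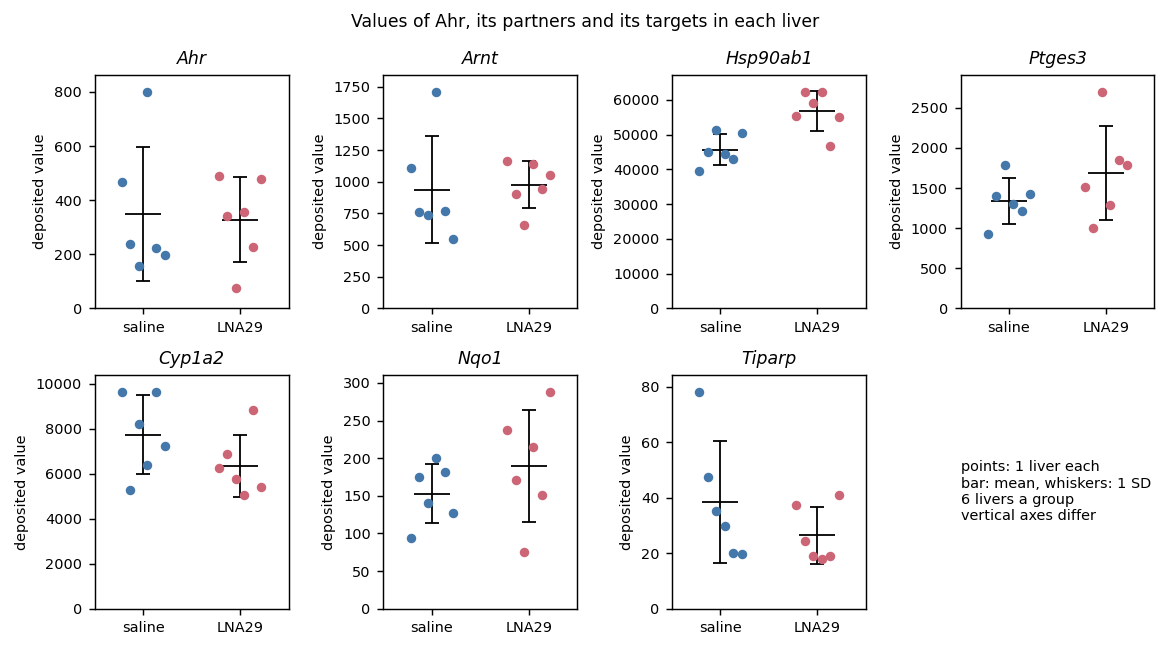
Deposited values (vertical axes, each from 0 and differing between panels) of the 7 tested genes in 6 saline and 6 LNA29 livers, with 1 point per liver, the mean as a bar and 1 SD as whiskers. The groups overlapped in every panel, and for Hsp90ab1 5 of 6 LNA29 livers lay above all saline livers.

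Ahr mRNA (Entrez gene 11622, chr12:35497974-35535038 on the minus strand of GRCm38, 11 exons) spanned a wide range in both groups. In saline livers 43, 45, 47, 49, 51 and 53 it stood at 469, 238, 158, 800, 222 and 196. In LNA29 livers 44, 46, 48, 50, 52 and 54 it stood at 487.5, 341, 75.5, 357, 226 and 479. The highest liver of all, saline 49, and the lowest, LNA29 48, differed more than 10-fold, and the groups overlapped over most of their range. The means were 347 ± 247 in saline livers and 328 ± 157 in LNA29 livers (SD, n = 6 each), and the log2 fold change was -0.055 with a standard error of 0.45 (limma adjusted p = 0.988; two-sided exact permutation p = 0.924). The 95% interval of the fold change ran from 0.496 to 1.87. Changes within these bounds were not excluded at this depth and spread. Between 4 and 80 reads per liver lay behind these values.

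The sign of the Ahr estimate depended on single livers. It rose to 0.24 without saline 49 and to 0.32 without LNA29 48, was 0.082 without saline 43 and 0.0070 without LNA29 52, and was below 0 when any of the other 8 livers was left out. Discarding values beyond 1.5 SD of the group mean removed 1 liver from each group and gave 0.61 (two-sided permutation p = 0.103, n = 5 each). The study applied this step beside an analysis of all values. Because it narrows the spread within each group, p-values after it are not exact and intervals can be too narrow. None of these estimates passed the test.

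**Figure D2:**
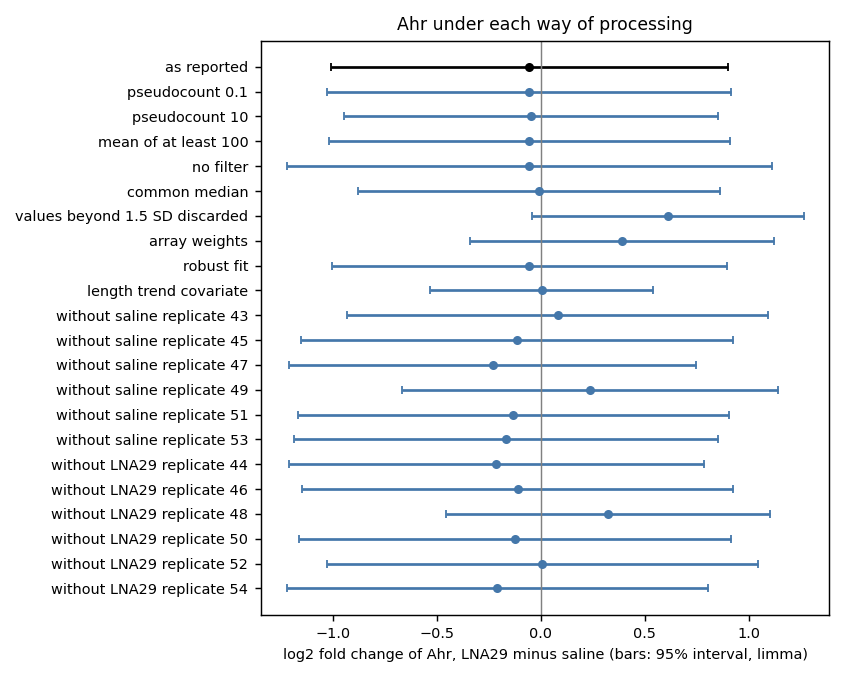
Log2 fold change of Ahr, LNA29 minus saline (horizontal axis, with 95% limma intervals), as reported and under each of 21 other ways of processing. The estimates ran from -0.23 to 0.61 and every interval crossed 0.

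Arnt (Entrez gene 11863, chr3:95434388-95497240, plus strand) encodes the nuclear partner that completes the DNA-binding pair. Its values in saline livers ran from 549 to 1710 with a median of 765. In LNA29 livers they ran from 660.4 to 1162.5 with a median of 999. Saline 49 was the highest of all 12 livers, as it was for Ahr, and 5 of 6 LNA29 livers were above the saline median. The means of 939 ± 419 and 978 ± 187 (SD, n = 6 each) gave a log2 fold change of 0.14 with a 95% interval from -0.37 to 0.64 (limma adjusted p = 0.937; two-sided exact permutation p = 0.623).

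Hsp90ab1 (Entrez gene 15516, chr17:45567775-45573271, minus strand), the constitutive cytosolic HSP90 that keeps the receptor able to bind ligand, was the member with the clearest separation of the groups. Saline livers stood at 39625, 44937, 51193, 44340, 42939 and 50431 in the order of their numbers. LNA29 livers stood at 55400, 62220, 59113, 62286, 46736 and 55014. All LNA29 livers but number 52 were above every saline liver, and all 6 were above the saline median. The means were 45578 ± 4459 and 56795 ± 5852 (SD, n = 6 each), which gave a log2 fold change of 0.32 with a 95% interval from 0.014 to 0.62. The two-sided exact permutation p of this single gene, not adjusted over the members, was 0.00866. It stayed under 0.05 whichever liver was left out, with values between 0.00433 and 0.0195, in tests that share most of their livers. The limma adjusted p over all genes was 0.608. The limma interval was less stable: it crossed 0 with each liver shifted to a common median (-0.0070 to 0.73) and in 8 of the 12 fits that left out 1 liver, those without saline 43, 45 or 51 or without LNA29 44, 46, 48, 50 or 54, with a lower bound down to -0.048. At 2477 to 5144 reads per liver, counting error was small beside the spread between livers.

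Hsp90aa1, the stress-inducible copy of HSP90 and no member, stood at 1252 ± 269 in saline and 1612 ± 444 in LNA29 livers (SD, n = 6 each), and its log2 fold change was 0.35 (two-sided exact permutation p = 0.121; limma adjusted p = 0.720).

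Ptges3 (Entrez gene 56351, chr10:128058954-128077272, plus strand) encodes p23, the co-chaperone of the cytosolic complex. It ran from 922 to 1789 in saline livers with a median of 1348, and from 1000 to 2698 in LNA29 livers with a median of 1647. LNA29 livers 48 and 52 lay above all saline livers, and the other 4 lay within the saline range. The means were 1340 ± 284 and 1688 ± 587 (SD, n = 6 each), with a log2 fold change of 0.29 and a 95% interval from -0.16 to 0.74 (limma adjusted p = 0.803; two-sided exact permutation p = 0.251). Of the 100-base windows of its transcript, 20.2% also occurred in other annotated transcripts, nearly all in the pseudogene Ptges3-ps, so its value depends on how RSEM divided such reads.

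Cyp1a2 (Entrez gene 13077, chr9:57676937-57683703, minus strand), the abundant hepatic P450 that oxidises caffeine and aromatic amines and needs Ahr for induction, had a lower mean in LNA29 livers but did not pass the test. Saline livers stood at 9625, 5270, 8228, 6400, 9626 and 7245. LNA29 livers stood at 6250, 6878, 5774, 5036, 8830 and 5397. In the LNA29 group 5 of 6 livers were below the saline median, but the groups overlapped from 5270 to 8830. The means were 7732 ± 1760 and 6361 ± 1372 (SD, n = 6 each), which gave a log2 fold change of -0.27 with a 95% interval from -0.64 to 0.090 (limma adjusted p = 0.761; two-sided exact permutation p = 0.167). The interval lay below 0 without saline 45 (-0.73 to -0.022, limma adjusted p = 0.630) and without LNA29 52 (-0.74 to -0.013, limma adjusted p = 0.687). It also lay below 0 with values beyond 1.5 SD of the group mean discarded (-0.71 to -0.038, limma adjusted p = 0.249), a step that narrows the spread within groups. Cyp1a2 is expressed around the central vein, and of the 8 other genes listed as markers of pericentral hepatocytes 3 had an unadjusted limma p under 0.05, all lower, beside 5.97% lower among all tested genes, and the list's median log2 fold change was -0.42. For 1 of the 3, Rgn, named here after its values were seen, the adjusted p was also under 0.05, as it was for 0.16% of all tested genes. Their summed value ran from 642403 to 1223980 in saline and from 361577 to 895002 in LNA29 livers. The part of this list's change in the Cyp1a2 values was not tested.

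Cyp1a1 (Entrez gene 13076, chr9:57687928-57703824, plus strand), the most inducible of the receptor's targets, was at the limit of detection. In no liver did more than 1 read fall on it. A read was present in 2 of 6 saline livers, numbers 43 and 49, and in 5 of 6 LNA29 livers, all but number 48 (two-sided Fisher's exact p = 0.242). Summed over livers these were 2 and 5 reads. With reads scaled by the upper quartile, the ratio of LNA29 to saline was 3.41 with a 95% counting interval from 0.558 to 35.8. A permutation test on the deposited values, which set a liver without a read at 1, gave a two-sided exact p of 0.0476. The values above 1 were each about 1 read and ran from 10.1 in saline 49 to 24.6 in LNA29 46. They differed by the worth of a read in each library, so this p mixes that scaling with the presence of a read. Fisher's test uses presence alone.

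Cyp1a1 and its neighbour Cyp1a2 share part of their sequence, and RSEM divided reads between them. In 6 of the 7 livers with a value, RSEM had given Cyp1a1 between 1.01 and 1.02 reads and Cyp1a2 a matching fraction short of a whole number, while the sum of the pair was whole in all 7 (tolerance 0.005). In those livers Cyp1a1 took between 0.158% and 0.357% of the reads on the pair. The reference transcripts have an identical stretch of 137 bases, and 38 of the 1841 windows of 100 bases in Cyp1a2 (2.06%) also occur in Cyp1a1. The divided part was small, so that each of these values was close to 1 read given to Cyp1a1 alone. A liver without a read still allows up to 3 reads, which was no more than 0.390 RPM (reads per 1000000 reads on genes) in any of these libraries.

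Nqo1 (Entrez gene 18104, chr8:107388225-107403206, minus strand), a quinone reductase that is a target of both Ahr and the antioxidant factor NRF2, ran from 93.8 to 200 in saline livers with a median of 157.5. LNA29 livers ran from 75.5 to 288 with a median of 192.5, and the group held both the lowest liver, number 48, and the 3 highest, numbers 44, 50 and 54. The means of 153 ± 39.6 and 189 ± 74.0 (SD, n = 6 each) gave a log2 fold change of 0.24 with a 95% interval from -0.47 to 0.94 (limma adjusted p = 0.924; two-sided exact permutation p = 0.474). Between 4 and 21 reads per liver lay behind them.

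Tiparp (Entrez gene 99929, chr3:65528410-65555518, plus strand) encodes an ADP-ribosyltransferase that modifies and restrains the receptor. Its reads numbered 2 to 5 in a saline liver and 1 to 3 in an LNA29 liver. Summed over each group these were 17 and 10 reads. With reads scaled by the upper quartile, the ratio of LNA29 to saline was 0.801 with a 95% counting interval from 0.328 to 1.85. On the deposited scale the means were 38.4 ± 22 and 26.4 ± 10.3 (SD, n = 6 each), with a two-sided exact permutation p of 0.266 and a limma adjusted p of 0.903.

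Ahrr (Entrez gene 11624, chr13:74211118-74292331, minus strand), the repressor that competes with the receptor for ARNT, had 1 read in saline livers 45 and 49 and in LNA29 liver 44, and none in the other 9 livers. Both groups were at or under 3 reads in all, so no fold change is given.

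Promoters of the members, 250 bases before to 50 after the start in RefSeq for GRCm38.p6, were searched for GCGTG on both strands. Over all 32851 promoters 32.4% held it. A promoter was found for 7 members: Ahrr held 3 matches, Ptges3 held 2, Arnt, Cyp1a1 and Tiparp held 1 each, and Cyp1a2 and Nqo1 held none. The matches in the 3 targets with hardly any reads are printed on the strand of the gene, with the core, or CACGC where it lies on the other strand, in capitals.
Cyp1a1, chr9:57697549-57697573, plus strand: agataaggagGCGTGgccaacagac
Tiparp, chr3:65528267-65528291, plus strand: ccgtccggagCACGCgcacgggagg
Ahrr, chr13:74292424-74292448, minus strand: ttgaaagggcGCGTGgcaggcaggg
Ahrr, chr13:74292399-74292423, minus strand: acaaggatgtGCGTGcgccctctgc
Ahrr, chr13:74292344-74292368, minus strand: ggggcggctcGCGTGctggggtggg
The capitals lie at -54 in Cyp1a1, at -170 in Tiparp and at -107, -82 and -27 in Ahrr, counted from the start. A match is a description of the letters and not a bound site, and the windows without a match say nothing of elements elsewhere in the gene.

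Levels were put in order per kilobase of the reference transcript, in the deposited unit. In saline livers the means were 18086 for Hsp90ab1, 3986 for Cyp1a2, 670.2 for Ptges3, 217 for Arnt, 98.5 for Nqo1, 62.6 for Ahr, 9.17 for Tiparp, 1.86 for Cyp1a1 and 1.05 for Ahrr. Each of the first 4 genes was above the next in all 12 livers. Nqo1 was above Ahr in 10 of 12 livers, Ahr was above Tiparp in 12, and Tiparp was above Cyp1a1 in 9, so that the neighbouring pairs Nqo1 and Ahr and Tiparp and Cyp1a1 were not separated beyond their spread. The level of Cyp1a1 and Ahrr is set largely by the value of 1 given to livers without a read. In LNA29 livers the order of the means was the same, from 22538 for Hsp90ab1 to 0.614 for Ahrr.

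Most of the spread of Ahr between livers went with a property of the libraries. For each liver the length trend was taken as the Spearman correlation, over 11111 genes, of the deviation of a gene from its mean with the length of its transcript, so that a liver with a high trend reads high on long transcripts. It ran from -0.30 to 0.50 in saline livers, with number 47 lowest and number 49 highest, and from -0.25 to 0.26 in LNA29 livers, with number 48 lowest and number 44 highest. The Ahr transcript is 5548 bases long. Its log2 value followed the trend with Pearson's r = 0.891 (permutation p = 8e-05, adjusted p = 0.000315 over 7 members) and Spearman's rho = 0.965 (permutation p = 1e-05, the smallest that the permutations can give) over 12 livers. Without saline 43 and saline 49, the livers farthest from the median trend, r was 0.845 (permutation p = 0.00219). Within the saline group r was 0.992 (exact permutation p = 0.00139, n = 6), and within the LNA29 group it was 0.872 (exact permutation p = 0.0153, n = 6).

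Arnt, with a transcript of 4325 bases, followed the trend with r = 0.882 (permutation p = 9e-05, adjusted p = 0.000315) and rho = 0.874 (permutation p = 0.00047). Without the same livers r was 0.783 (permutation p = 0.00792), within saline livers 0.935 (exact permutation p = 0.0111, n = 6) and within LNA29 livers 0.784 (exact permutation p = 0.0708, n = 6). For the other 5 tested members the adjusted p was at least 0.174 for Pearson's r and at least 0.166 for Spearman's rho. Among these, Nqo1 had r = 0.358 over 12 livers but 0.747 without saline 43 and saline 49 (permutation p = 0.0131), and within LNA29 livers its rho was 0.886 (exact permutation p = 0.0333, n = 6). The relation was looked for after the values had been seen, and the trend was computed from these same genes. Long transcripts share the trend by construction. The permutation p-values compare with no relation at all, so they do not show how Ahr or Arnt stands among long transcripts. Among 2306 genes of at least 5000 bases the median r was 0.478, and 3.95% reached the r of Ahr. Of all 11111 genes 1.60% reached the r of Ahr and 2.05% that of Arnt. Of 2811 genes under 2000 bases 0% reached either.

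**Figure D3:**
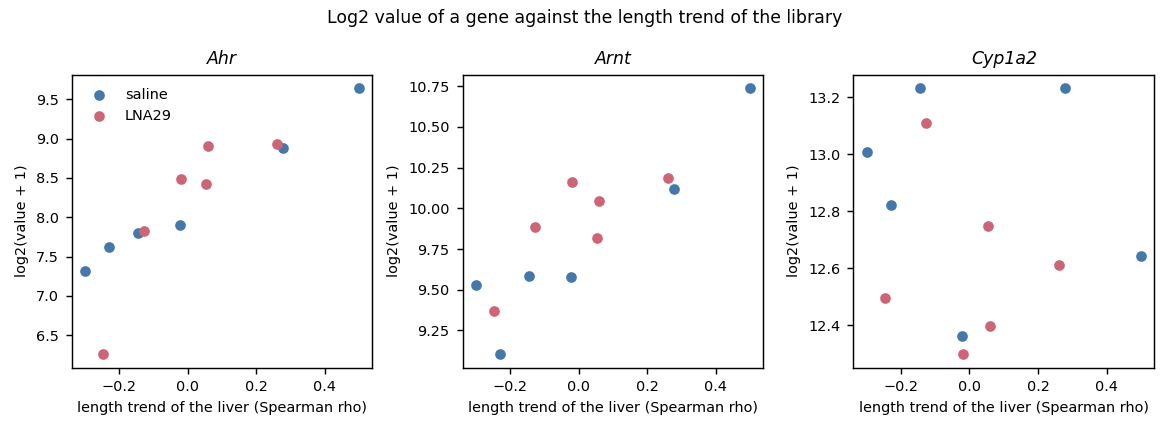
Log2(value + 1) of Ahr, Arnt and Cyp1a2 (vertical axes, differing between panels) against the length trend of the library (Spearman's rho, horizontal axis), with 1 point per liver in the colour of its group. Ahr and Arnt climbed with the trend in both groups (r = 0.891 and 0.882 over 12 livers), while Cyp1a2 had r = -0.12.

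With the length trend as a covariate in the limma fit, the standard error of the Ahr log2 fold change fell from 0.45 to 0.25, and the estimate was 0.0035 with a 95% interval from -0.53 to 0.54. Arnt then stood at 0.16 with an interval from -0.13 to 0.46, and Hsp90ab1 at 0.31 with an interval from 0.064 to 0.56. None of the 7 members passed the adjusted threshold in that fit either.

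Among the members, Arnt was the one whose log2 values went with those of Ahr. Their r was 0.855 over 12 livers (permutation p = 0.00063, adjusted p = 0.00378 over 6 members), rho was 0.916 (permutation p = 6e-05), and r was 0.830 (permutation p = 0.00355) without saline 49 and LNA29 48, the livers farthest from the median of Ahr. Both genes also followed the length trend. Nqo1 had r = 0.641 with Ahr (adjusted permutation p = 0.0639) and rho = 0.692 (adjusted permutation p = 0.0481). Without the same livers r was 0.368 (permutation p = 0.295), so that the pooled relation was not clear without them. Within groups r was 0.105 in saline and 0.977 in LNA29 livers (n = 6 each), and the difference between the groups was not tested. Cyp1a2, the target with the most reads, had r = -0.088 with its receptor (permutation p = 0.789). Outside the members, the log2 patterns most like that of Ahr over the 12 livers, among 8989 other genes with a mean of at least 100, were those of Zc3h7b (r = 0.976), Sf3b1 (r = 0.968) and Rab18 (r = 0.967), with transcripts of 5740, 6195 and 6515 bases.

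The wider pathway was read from a list of 41 further genes, of which 40 were in the table and 35 were tested. Here too 0 had an adjusted p under 0.05. By unadjusted limma p, 2 were higher (Npas2 and Fgf21) and 3 lower (Cyp2a5, Afmid and Ido2) in LNA29 livers, beside 1.95% higher and 5.97% lower among all tested genes. Of the 35 estimates, 17 were above 0 and 18 below, with a median of -0.035.

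**Figure D4:**
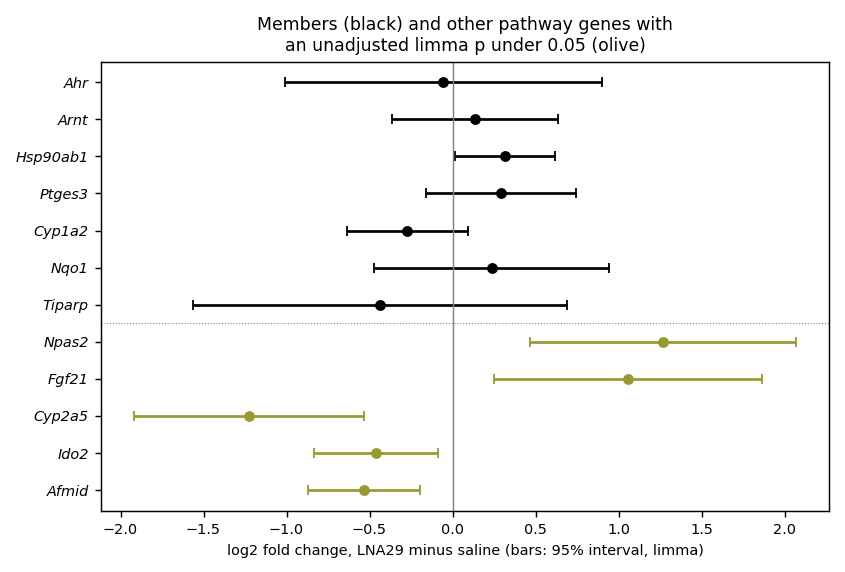
Log2 fold change, LNA29 minus saline (horizontal axis), with 95% limma intervals, for the 7 tested members (black) and the 5 other pathway genes with an unadjusted limma p under 0.05 (olive). The interval of Hsp90ab1 began at 0.014, and those of the other 6 members crossed 0.

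The 11 genes of the receptor complex and of its coactivators and turnover had no member with an unadjusted p under 0.05, and their median was -0.035. Stub1, a chaperone-linked ubiquitin ligase and 1 of the more abundant of them, stood at 1773 ± 390.04 in saline and 1875 ± 279.5 in LNA29 livers (SD, n = 6 each; limma adjusted p = 0.933).

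Of 6 other bHLH-PAS genes, 4 were tested, and Arnt2 and Sim2 stood at 1 in every liver. Npas2, a clock factor that pairs with BMAL1, ran from 63.5 to 220 in saline livers and from 132 to 466 in LNA29 livers, with 4 of 6 LNA29 livers above all saline livers. Its log2 fold change was 1.27 (two-sided exact permutation p = 0.0173; limma adjusted p = 0.265). The partners of ARNT in the hypoxia response were not called. Epas1 had a log2 fold change of -0.55, Hif1a of -0.058 and Hif3a of 0.30 (limma adjusted p = 0.747, 0.982 and 0.974). Hif3a rested on 12 reads summed over saline and 6 over LNA29 livers, and both groups held livers without a read. Its mean value was lower in LNA29 livers, 16.8 against 21.3 in saline livers.

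The list of other Ahr target genes had 15 of 16 genes in the table and 13 tested, with a median of 0.26. Cyp2a5, a P450 that oxidises coumarin and nicotine, ran from 7894 to 32831 in saline livers and from 5034 to 17271 in LNA29 livers. In 4 of 6 LNA29 livers it was below every saline liver, and in all 6 it was below the saline median. Its lowest saline and highest LNA29 values were not whole multiples of 1 read, so they depend in part on how RSEM divided reads. The log2 fold change was -1.22 (two-sided exact permutation p = 0.0195; limma adjusted p = 0.210), and without LNA29 48 it was -1.46 with an adjusted p of 0.0468. Fgf21, a fasting hormone, had a log2 fold change of 1.06 (two-sided exact permutation p = 0.0390; limma adjusted p = 0.432). Igfbp1, which binds insulin-like growth factors, had 0.74, and the glucuronosyltransferases Ugt1a9 and Ugt1a6a, which share exons with the rest of their cluster so that their reads cannot be assigned with certainty, had 0.30 and 0.26 (limma adjusted p = 0.793, 0.864 and 0.940).

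Enzymes that make or break tryptophan-derived ligands numbered 8, of which 7 were tested and Ido1 stood at 1 in every liver. Afmid, which opens formylkynurenine to kynurenine, ran from 3212 to 5047 in saline livers with a median of 4494, and from 2366 to 4000 in LNA29 livers with a median of 3079. All 6 LNA29 livers were below the saline median, and the log2 fold change was -0.53 (two-sided exact permutation p = 0.0130; limma adjusted p = 0.265). Ido2, one of the enzymes that open the indole ring, stood at 4046 ± 979 and 2908 ± 563 (SD, n = 6 each) with a log2 fold change of -0.46 (two-sided exact permutation p = 0.0368; limma adjusted p = 0.485). Tdo2, the main hepatic enzyme of that step, had 0.26, Kynu had 0.11 and Kmo -0.25, with limma adjusted p of 0.874, 0.930 and 0.823.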

How the data were processed

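Polyadenylated RNA of 12 livers was sequenced as single reads of 100 bases. Per the study's methods and the submitters' processing notes, the authors aligned reads to mm9 with MapSplice2 and estimated reads per gene with RSEM; versions and the annotation are not given in the sources used here. The deposited signal values are those reads scaled to an upper quartile of 1000, with 1 for a gene without reads. Left aside were the authors' own columns of group means, signed fold change (a score with no fixed range) and p-value, and 3 columns without a name.

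Genes with a mean of at least 10 (12486) were tested on log2(value + 1) with limma 3.58.1 in R 4.3.3 with a trend, Benjamini-Hochberg adjustment and a threshold of 0.05. Each member also had an exact permutation test, two-sided, over 924 divisions. Correlations used permutation tests, exact within groups. Fold changes are on the log2(value + 1) scale, in which the added 1 shrinks the change of low genes. In genes with livers without a read, set at 1, the estimate can be larger or smaller than the ratio of means. It can also point the other way. Reads were recovered as whole multiples of the worth of 1 read; between 92.1% and 93.7% of values were whole within 0.02. Intervals on reads cover counting error only. Transcript lengths, 3′ UTRs and promoters came from GRCm38, which is not the authors' build. Every member is named, with further pathway genes that had an unadjusted p under 0.05 or, beyond these, the 3 highest means of their role. Single genes that this rule would name are not reported here. Members and lists were chosen with earlier results of these data known. Each library was taken as 1 mouse. The scripts were tested on simulated data; Python 3.11.15, numpy 2.4.6, scipy 1.17.1 and pandas 2.3.3 were used. Alternatives were other pseudocounts, filters, scaling, discarding, weights, a robust fit, a length covariate and leaving out each liver.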

Additional observations from a re-analysis of the deposited data

How the results depend on the processing

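The count of members with an adjusted p under 0.05 was 0 under all 21 alternatives. The log2 fold change of Ahr was above 0 with values beyond 1.5 SD discarded (0.61), with array weights (0.39), with the length trend covariate (0.0035), and without saline 43 (0.082), saline 49 (0.24), LNA29 48 (0.32) or LNA29 52 (0.0070); over the fits that left out 1 liver it ran from -0.23 to 0.32. The cause was not tested. The count of other pathway genes with an adjusted p under 0.05 was 0 as reported. It was 1 with array weights (Cyp2a5) and 3 with values discarded (Ugdh, Afmid and Cyp2a5, all lower), a step that narrows the spread within groups. When a liver was left out it was between 0 and 1 (Cyp2a5 without LNA29 48). The share of all genes called under each alternative is not given here, so these counts stand without a background. The other 6 tested members kept the sign of their estimate under every alternative that gave a value. With values discarded, Arnt stood at 0.44 with a permutation p of 0.0397, against 0.623 with all values. That p is not exact, because discarding within each group narrows the spread. The Hsp90ab1 log2 fold change ran from 0.28 to 0.37, with limma adjusted p between 0.0923 and 0.821. The correlation of Ahr with the length trend, whose alternatives were chosen after seeing the data, ran from 0.853 to 0.954, and that of Arnt from 0.775 to 0.914. The 3 planned count tests were not run, because the values are scaled and not all could be turned back into whole reads. No paired analysis was possible because the groups share no replicate number. Depth limits Cyp1a1, Ahrr and Tiparp, with at most 5 reads in any liver, and leaves Ahr at 4 to 80 reads.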
